A study of Homo sapiens with 24 samples.

Results

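The beta cell turns its metabolic state into insulin release through its membrane potential. ATP from glucose metabolism closes the ATP-sensitive potassium (KATP) channel, the membrane depolarises, voltage-gated calcium channels open and calcium triggers the fusion of insulin granules, while large-conductance calcium-activated (BK) potassium channels help to end each action potential. H3K4me3, trimethylation of lysine 4 of histone H3, marks the nucleosomes around active and poised transcription start sites, so it was followed here at the start sites of 6 genes of this circuit: ABCC8 and KCNJ11, which encode the SUR1 regulatory subunit and the Kir6.2 pore subunit of the KATP channel; KCNMA1, the BK pore subunit; and CACNA1A, CACNA1C and CACNA1D, the pore subunits of the P/Q-type channel and of a pair of L-type calcium channels.

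The 6 genes are 6 of the 14765 protein-coding genes with a tested H3K4me3 promoter. They were selected with results of these data already known, since the ABCC8 promoter was among those with the largest raised signal. For each gene, every region of the authors' deposited H3K4me3 comparison that overlapped 2 kb on either side of any GENCODE release 44 start site was listed, which gave 29 promoter regions of 97545 regions in all, and the region with the highest mean signal stands for the promoter. The log2 fold changes below are therefore a description of the values by which the genes were chosen, and support nothing beyond themselves. At the limit of this window, the outermost region inside it lay 1884 bp from a CACNA1D start, with a mean of 1.82 normalized counts and a log2 fold change of −1.61 ± 1.53, and the nearest region outside it lay 2588 bp from another CACNA1D start, with 15.7 normalized counts and −0.38 ± 0.40.

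The cells were EndoC-βH3, a beta cell line from human fetal pancreas immortalised with excisable transgenes for hTERT, the catalytic subunit of telomerase, and for the Large T antigen of SV40, an inhibitor of p53 and Rb. Non-senescent cells were untreated controls, and senescent cells had received 4-hydroxytamoxifen (1 mM as labelled, although the study's methods give the dose in micromolar) for 3 weeks, which activates the CreER recombinase and removes the transgenes, so the treatment, the loss of the transgenes and the exit from the cell cycle cannot be told apart. The 4 non-senescent and 4 senescent H3K4me3 samples shared the line, the genotype labelled WT and the MINT-ChIP protocol, in which MNase-digested chromatin of 500000 cells per sample is barcoded and pooled before the antibody is added. The labels number the samples within a state without saying whether they came from separate cultures, so errors and p-values measure the spread between these samples, which may be technical. Another 16 samples, of H3K27me3 and H3K9me3, were not analysed here.

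Values are given as mean normalized counts over all 8 samples and as log2 fold changes ± the standard error, both from the authors' DESeq2 comparison. There were no values per sample, so the levels in each state, the overlap of the groups and the depth of each sample are unknown. Which state was divided by which is not written in the table. The contrast was read as senescent over non-senescent because 30 of 33 cell cycle genes lay below 0, with a median log2 fold change of −0.42, 6 of them lowered and 0 raised at the limits used here. Every direction below depends on this reading. The identity of the cells was checked on markers. Of 14 beta cell markers 13 had a tested promoter, with a median of 259 mean normalized counts, and the exception was MAFA, which had no region. Of 16 markers of other pancreatic, immune, endothelial and stromal cells 10 had one, with a median of 13.5, and CELA3A, PDGFRB, PTPRC, CD3E and VWF had no region, while that of PRSS1 had no adjusted p. At the limits used here IAPP, islet amyloid polypeptide, was the 1 beta cell marker raised (3.50 ± 0.91 on 6.94 counts), and 0 of the others were called. The insulin gene INS had 24.7 mean normalized counts and a log2 fold change of −0.42 ± 0.33. Counts ranged from 6.94 to 665 over the beta cell markers and from 3.54 to 61.8 over those of other cells. The alpha cell markers IRX2 and GCG had 61.8 and 5.30 counts, and the delta cell markers HHEX and SST 30.7 and 21.9. These ranges overlap, so the markers do not separate beta cells from other islet cells.

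A promoter was called raised or lowered where its fold change exceeded 1.5 and its adjusted p was under 0.05. Of all tested promoters, 0.501% were raised and 0.704% were lowered. Among the 6 genes 1 was raised, ABCC8, and 0 were lowered, which is given as a count only because ABCC8 was chosen for its value. The strongest regions of ABCC8, KCNJ11 and CACNA1D had log2 fold changes above 0 and those of KCNMA1, CACNA1A and CACNA1C below 0. Their median was −0.01, or −0.03 without ABCC8, beside −0.04 over all tested promoters.

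**Figure D1:**
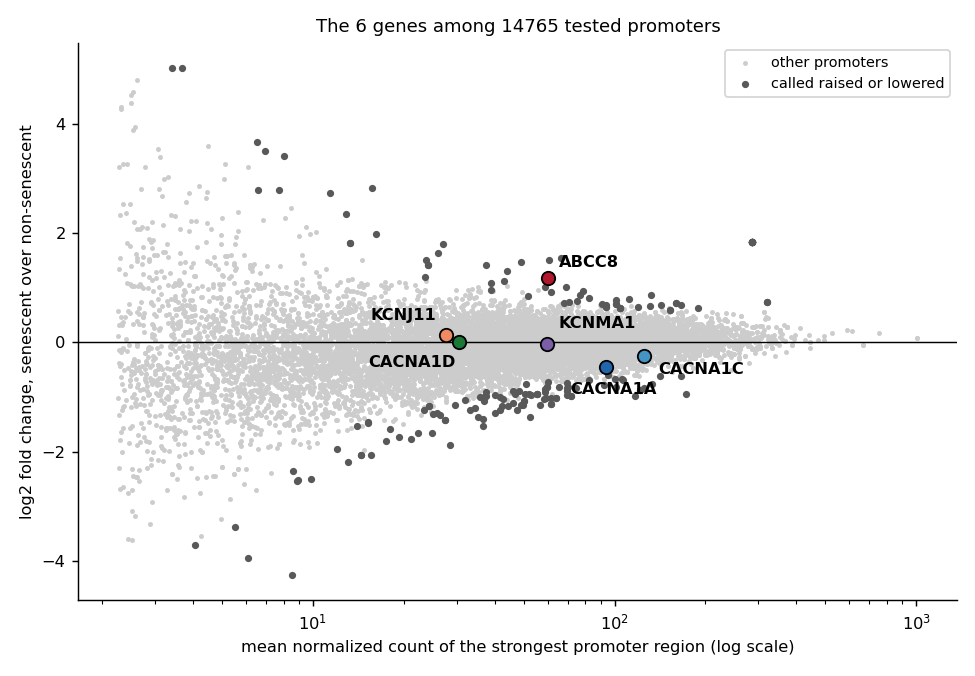
Log2 fold change of H3K4me3 (senescent over non-senescent) against the mean normalized count (log scale) of the strongest promoter region of each of 14765 genes. Light points are promoters not called, dark points those called raised or lowered, and coloured points the 6 genes: ABCC8 lies at 1.18 among the raised promoters, and the other 5 lie between −0.46 and 0.14.

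ABCC8 carried the only called change among these genes. Its strongest region, chr11:17471280-17476731 (hg38), covered the first exons and introns of the gene, with 60.3 mean normalized counts, near the median of 50.5 over all tested promoters. H3K4me3 there was higher in senescent cells by 1.18 ± 0.25 on the log2 scale, a fold change of 2.27, with a 95% interval of 0.68 to 1.68 and a DESeq2 adjusted p of 0.00208. By log2 fold change it ranked 173 of 14765 from the top, and 16 among those whose mean signal was at or above the median. Among raised promoters of such signal, 15 genes had a higher value, but these lay in 3 distinct regions, because neighbouring genes can share one. No other gene shared the ABCC8 region.

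The raised region was wide and sparse. Its 5451 bp put it at percentile 93.2 of strongest promoter regions by width, while its 11.1 counts per kb lay at percentile 18.8 and its 18.9 CpG dinucleotides per kb at percentile 9.93. The region did not hold the canonical start site itself. It began 114 bp downstream of the start, at position 17476845 on the minus strand, and reached 5.57 kb into the gene. A further 4 promoter regions of ABCC8 lay 32.9 to 71.0 kb downstream, within 2 kb of starts of shorter transcripts, not all of them protein-coding. All 4 regions were weak. The 3 with an adjusted p had 5.86, 7.86 and 12.9 counts and log2 fold changes of −0.72 ± 0.68, −0.20 ± 0.61 and −0.28 ± 0.44, and the weakest, with 1.64 counts and 1.12 ± 1.65, had none. The higher signal was thus measured in the region beginning just downstream of the canonical start. That region holds 5 other annotated ABCC8 starts, so its value cannot be assigned to a single start. No higher signal was called in the 3 weaker ABCC8 regions with an adjusted p, where errors were 1.74 to 2.68 times as large.

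KCNJ11 lies directly beside ABCC8, on the same strand and downstream of it, and the canonical start sites are 88.2 kb apart. KCNJ11 had a pair of promoter regions with different values. The stronger, chr11:17384386-17386989, lay over the 3′ part of the canonical transcript and just beyond it, 1670 to 4273 bp downstream of the canonical start, with 27.7 counts and a log2 fold change of 0.14 ± 0.33 (adjusted p = 0.901). The weaker, chr11:17388086-17390125, held the canonical start at 17388659, with 12.2 counts and −1.05 ± 0.48. Its unadjusted DESeq2 p was 0.0295 and its adjusted p 0.300, so it was not called. At 65.2 CpG per kb the start region had a CpG density 4.04 times that of the downstream region, and 0.562 times its counts per kb.

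From the canonical KCNJ11 transcript to the ABCC8 start there were 9 regions, of which the one at the ABCC8 start held 41.2% of the summed mean counts. Among the other 6 regions with an adjusted p, log2 fold changes ran from −1.05 to 0.17 and 0 were called. A further region lay downstream of the canonical KCNJ11 transcript, inside the annotated extent of the gene. It had 6.41 counts and −0.47 ± 0.62, was not called and is not part of these figures. The ABCC8 start region stood 2.23 log2 units above the KCNJ11 start region, 81.2 kb away, and no error was computed for this difference. That KCNJ11 region was the weaker of its pair and not called (−1.05 ± 0.48 on 12.2 counts). The region that stands for KCNJ11 lay at 0.14 ± 0.33. A raised signal was therefore called in the ABCC8 start region alone among the regions of these neighbouring genes. At the precision of the downstream KCNJ11 region, a log2 change of at least 1.15 would have been needed for an adjusted p under 0.05, while the KCNJ11 start region needed 1.67 and the 3 weak ABCC8 regions with an adjusted p needed 1.52 to 2.33. An estimate of the size measured at the ABCC8 start would thus not have been called at the KCNJ11 start or at those weaker ABCC8 regions.

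**Figure D2:**
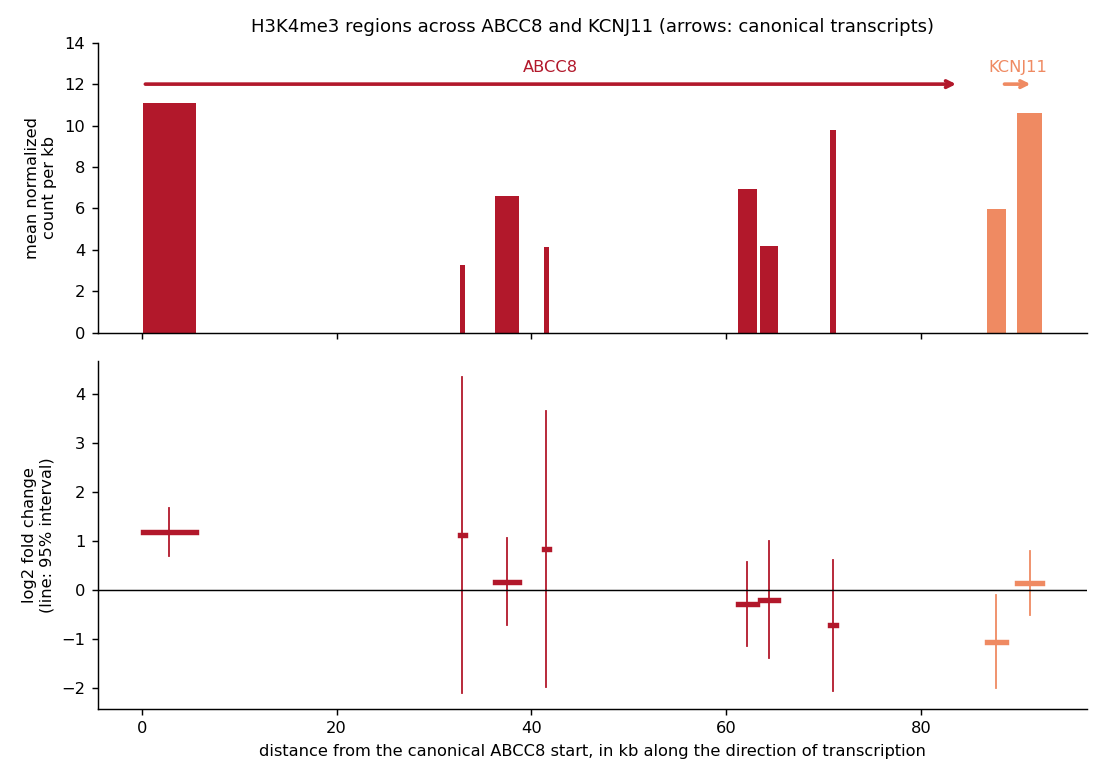
H3K4me3 regions across ABCC8 and KCNJ11 by distance in kb from the canonical ABCC8 start along the direction of transcription, with mean normalized counts per kb above and log2 fold changes with 95% intervals below (red ABCC8, orange KCNJ11; arrows are the canonical transcripts). The region at the ABCC8 start lies at 1.18 with an interval above 0, the region at the KCNJ11 start lies at −1.05, and the intervals of all other regions hold 0.

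KCNMA1, whose channel repolarises the membrane when calcium rises, had a mean signal close to that of ABCC8 and a log2 fold change near 0. Its strongest region, chr10:77634787-77637713, began 95 bp downstream of the canonical start and held 59.8 counts, with a log2 fold change of −0.03 ± 0.21 and a 95% interval of −0.44 to 0.39. A log2 change of 0.73 would have reached an adjusted p under 0.05 there. The other 4 regions had at most 9.92 counts and log2 fold changes from −1.03 to 0.72, and the 95% interval of each held 0. RefSeq gives 2 KCNMA1 starts, and the 250 bases before each are shown because only one of them carried the mark. CpG dinucleotides are in capitals.

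KCNMA1 start with the strongest region, chr10:77637809-77638058, minus strand: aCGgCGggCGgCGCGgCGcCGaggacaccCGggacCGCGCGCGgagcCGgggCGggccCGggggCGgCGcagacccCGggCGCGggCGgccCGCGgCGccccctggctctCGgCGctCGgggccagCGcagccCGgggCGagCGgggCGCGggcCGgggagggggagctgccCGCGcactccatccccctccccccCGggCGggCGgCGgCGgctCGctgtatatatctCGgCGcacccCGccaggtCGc
KCNMA1 start without a region, chr10:77350762-77351011, minus strand: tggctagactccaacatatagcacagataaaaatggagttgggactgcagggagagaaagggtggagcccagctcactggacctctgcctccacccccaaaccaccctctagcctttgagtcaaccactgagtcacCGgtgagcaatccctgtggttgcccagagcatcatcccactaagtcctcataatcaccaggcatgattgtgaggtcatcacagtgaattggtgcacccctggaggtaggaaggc

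The first holds 46 CpG and 85.6% GC, and the second 1 CpG and 53.6% GC. No H3K4me3 region lay within 2 kb of the second start. Of 35116 RefSeq promoters (GRCh38.p14), 99.6% have fewer CpG in these 250 bases than the first and 6.06% fewer than the second, and the median is 11.

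CACNA1A, the P/Q-type pore subunit, was marked away from its canonical start. Only 1 weak region lay within 2 kb of that start, at 13506479 on chromosome 19, with 3.35 counts and a log2 fold change of 1.21 ± 1.07. The 3 strong CACNA1A regions lay 92.8, 117 and 127 kb upstream of it, each holding the start of an alternative transcript, with 54.7, 94.0 and 78.2 counts. The strongest, chr19:13621855-13625757, had a log2 fold change of −0.46 ± 0.18 (fold change 0.728, 95% interval −0.82 to −0.10). Its unadjusted DESeq2 p was 0.0125 and its adjusted p 0.206, so it was not called. The region beyond it, chr19:13631578-13634430, had −0.33 ± 0.19 and the nearer one, chr19:13597851-13600688, −0.05 ± 0.27. All 3 lay below 0, while the 3 weak regions nearer to the canonical start lay above 0 with errors of 0.76 or more. The sequences before both kinds of start are shown for comparison.

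CACNA1A canonical start, chr19:13506480-13506729, minus strand: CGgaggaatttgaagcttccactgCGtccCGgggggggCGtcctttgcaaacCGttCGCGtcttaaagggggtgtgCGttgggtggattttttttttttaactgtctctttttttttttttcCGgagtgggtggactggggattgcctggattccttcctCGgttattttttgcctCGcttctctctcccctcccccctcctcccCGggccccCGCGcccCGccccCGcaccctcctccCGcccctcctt
CACNA1A start in the strongest region, chr19:13624490-13624739, minus strand: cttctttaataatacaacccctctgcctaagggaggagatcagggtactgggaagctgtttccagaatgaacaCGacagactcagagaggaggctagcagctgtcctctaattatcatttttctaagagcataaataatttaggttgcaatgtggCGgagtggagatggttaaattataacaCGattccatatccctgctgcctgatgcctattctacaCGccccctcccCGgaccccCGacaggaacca

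The canonical start has 17 CpG in 250 bases and the alternative start 6, so here the start with fewer CpG carried the stronger mark, the reverse of the order at the KCNMA1 starts. The strongest CACNA1A region as a whole had 19.2 CpG per kb, at percentile 10.3 of strongest promoter regions, close to that of ABCC8.

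CACNA1C, an L-type pore subunit, had the highest mean count in a single region among the 6 genes, though CACNA1A was higher per kb (24.1 against 21.1 counts) and summed over its promoter regions (238 against 151). Its main region, chr12:2053073-2058997, spanned 5924 bp from 86 bp downstream of the canonical start, at percentile 95.1 by width, with 124.8 counts and a log2 fold change of −0.25 ± 0.16. The 95% interval of −0.56 to 0.07 held 0. A second region just upstream of the start had 20.4 counts and a nearly equal value of −0.36 ± 0.36. The third, in an intron 60.9 kb downstream (chr12:2113289-2114553), had the lowest log2 fold change with an adjusted p among the promoter regions of the 6 genes, −2.12 ± 0.81, on 5.98 counts. Its unadjusted DESeq2 p was 0.00885 and its adjusted p 0.178.

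CACNA1D, the other L-type pore subunit, had a weaker mark and a value at 0. Its strongest region, chr3:53494712-53497685, began 101 bp downstream of the canonical start, with 30.5 counts and a log2 fold change of 0.01 ± 0.30, and the region just upstream had 8.76 counts and 0.05 ± 0.52. The other 6 regions, 176 to 314 kb into the gene, held at most 10.6 counts each. All 6 had log2 fold changes below 0, from −3.08 to −0.15, and the 95% interval of each held 0. The sequences before the starts of both L-type genes are shown because these are the CpG-rich starts of the calcium channel genes.

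CACNA1C canonical start, chr12:2052737-2052986, plus strand: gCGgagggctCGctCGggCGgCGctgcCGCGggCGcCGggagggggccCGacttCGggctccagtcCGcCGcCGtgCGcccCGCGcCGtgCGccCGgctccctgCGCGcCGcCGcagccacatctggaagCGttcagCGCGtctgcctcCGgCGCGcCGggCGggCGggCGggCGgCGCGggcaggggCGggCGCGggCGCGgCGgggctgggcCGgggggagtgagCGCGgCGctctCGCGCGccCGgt
CACNA1D canonical start, chr3:53494361-53494610, plus strand: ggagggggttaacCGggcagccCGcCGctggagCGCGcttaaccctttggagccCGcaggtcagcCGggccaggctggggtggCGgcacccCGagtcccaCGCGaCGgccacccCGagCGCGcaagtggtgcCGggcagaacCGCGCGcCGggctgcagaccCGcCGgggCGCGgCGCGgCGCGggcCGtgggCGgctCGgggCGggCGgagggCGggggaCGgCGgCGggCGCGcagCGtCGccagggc

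CACNA1C holds 51 CpG in these bases and CACNA1D 41, more than in 99.9% and 98.3% of RefSeq promoters. The GC box GGGCGG was searched on both strands and overlapping copies were not counted separately, so runs of it count for less than they hold. Counted this way, it occurs 4 times before the CACNA1C start and 3 times before that of CACNA1D. Before the marked KCNMA1 start it occurs 5 times and before the canonical CACNA1A start 2 times. It was absent before the unmarked KCNMA1 start and the alternative CACNA1A start, and 42.6% of RefSeq promoters hold it. The letters TATAAA, held by 10.7% of promoters, occurred in none of the 6 sequences on either strand, and CCAAT, held by 32.0%, once, before the unmarked KCNMA1 start. ABCC8 and KCNJ11 are named only, without sequence.

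**Figure D3:**
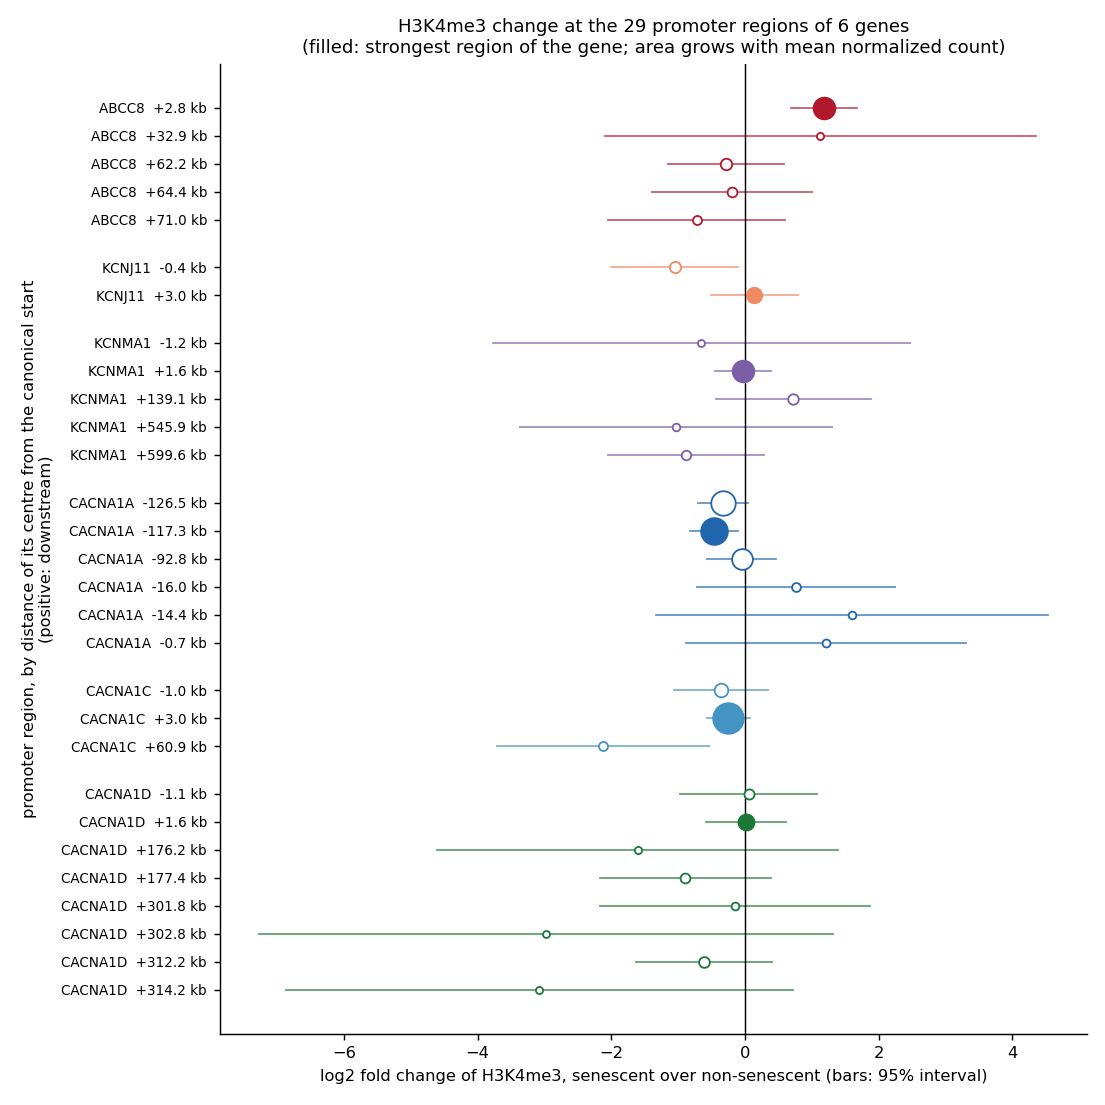
Log2 fold change (senescent over non-senescent) with its 95% interval for the 29 promoter regions of the 6 genes, labelled by the distance in kb of the region's centre from the canonical start. Filled points are the strongest region of each gene and point area grows with the mean normalized count; the ABCC8 region at +2.8 kb lies at 1.18 and the intervals widen as the count falls.

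In 4 of the 6 genes, ABCC8, KCNMA1, CACNA1C and CACNA1D, the strongest region thus began 86 to 114 bp downstream of the canonical start and ran into the gene, leaving the start itself outside. The canonical start lay inside the strongest region in 0 of the 6 genes, against 65.3% of tested promoters. A strongest region wholly downstream of the canonical start was not particular to these genes. It was found in 5 of the 6, in 26 of 60 other excitability genes and in 21.7% of tested promoters. The strongest region began 50 to 150 bp downstream, limits chosen after the positions were seen, in 1.10% of tested promoters, and in 1 of 60 other excitability genes. As the limits were drawn around these genes, the counts are a description.

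Taking all 29 promoter regions, 24 had an adjusted p, of which 1 was raised and 0 lowered. Over all tested regions within 2 kb of a start site, 0.561% were raised and 0.571% lowered. Not all of the 29 lay within 2 kb of the start of a protein-coding transcript. Such a start was near 2 of 5 regions of ABCC8, 2 of 8 of CACNA1D, 3 of 6 of CACNA1A and 4 of 5 of KCNMA1. It was near all regions of KCNJ11 and CACNA1C. Of the 29 regions, 20 had log2 fold changes below 0, and 9 lay above 0. At an unadjusted DESeq2 p under 0.05 there were 4, higher at ABCC8 and lower at the KCNJ11 start, the CACNA1A strongest region and the CACNA1C intron. At that limit 5.71% of all regions near start sites were higher and 6% lower. A further 122 regions lay inside the 6 genes but more than 2 kb from any of their start sites, and 97 of them had an adjusted p. Of these 0 were called, beside 0.98% raised and 0.139% lowered over all regions away from start sites. At an unadjusted DESeq2 p under 0.05, 5 of all 122 were higher and 0 lower, beside 9.24% higher and 2.66% lower over all regions away from start sites. Above 0 lay 63 and below 0 lay 59. Their median log2 fold change was 0.03, beside 0.31 over regions away from start sites. The strongest of these 122 regions that was not the promoter of another gene was an intronic CACNA1C region of 7232 bp, chr12:2080593-2087825, with 81.5 counts and −0.35 ± 0.24. Regions of 86.8 and 93.1 counts inside the annotated extents of CACNA1C and CACNA1D lay at the starts of the decapping genes DCP1B and DCP1A.

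Beyond these 6 genes, 75 others that set the membrane potential or handle calcium were listed by role. Of these 60 had a tested promoter, 2 had a region without an adjusted p and 13 had no region. By DESeq2, 0 were raised and 0 were lowered, beside 0.501% and 0.704% of all tested promoters. At an unadjusted p under 0.05, 5 were higher and 5 lower, beside 4.78% and 7.08% of all tested promoters. Above 0 lay 25 and below 0 lay 35, beside 6478 and 8287 of all tested promoters. The median log2 fold change of these genes was −0.06, beside −0.04 over all tested promoters. The median standard error of these genes was 0.28, beside 0.25 over all tested promoters.

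Partner subunits of the 6 genes showed no called change, beside 0.501% raised and 0.704% lowered among all tested promoters. Of the other KATP-type subunits both were tested, with log2 fold changes of −0.63 ± 0.32 on 34.0 counts and 0.64 ± 0.50 on 17.5 counts. Of 4 BK accessory subunits 3 were tested, from −0.30 to 0.20, the lowest being KCNMB4, a neuronal BK beta subunit (−0.30 ± 0.25). The 8 calcium channel accessory subunits were all tested, with a median of −0.06. They ranged from −0.85 ± 0.53 on 12.2 counts to 1.08 ± 0.66 on 8.77 counts. Other calcium channel pore subunits gave 4 tested genes of 7, from −0.50 to 0.20.

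Among genes with at least the median signal, the highest log2 fold changes were those of ITPR1, the type 1 IP3 receptor that releases calcium from the endoplasmic reticulum (0.55 ± 0.21, adjusted p = 0.178), ATP2A2, the SERCA2 pump that refills this store (0.41 ± 0.19, adjusted p = 0.292), and TRPM3, a cation channel (0.30 ± 0.20, adjusted p = 0.534). The lowest was that of SLC8A1, the sodium-calcium exchanger of the plasma membrane, −0.66 ± 0.20 on 75.8 counts. Its adjusted p of 0.0699 was just above the limit. KCNMB4 and the sodium channel SCN8A (−0.29 ± 0.18) followed. The calcium store, pump and exchanger genes held 5 of the 10 with an unadjusted DESeq2 p under 0.05, with 2 higher and 3 lower among 9 tested. Over all tested promoters 4.78% were higher and 7.08% lower at that limit. Whether this group differs from other promoters was not tested. Of 7 sodium channels tested, 4 lay below 0, with a group median of −0.13, and 2 had such a p, both higher: SCN2A (0.89 ± 0.30, adjusted p = 0.0994) and SCN3A (0.98 ± 0.30, adjusted p = 0.0691), each on fewer counts than the median promoter. Of 10 voltage-gated potassium channels tested, 7 lay below 0 and 3 had such a p: KCND3 (−1.08 ± 0.40) and KCNS3 (−0.91 ± 0.39) on the lower side and KCNH6 (0.95 ± 0.39) on the higher. The calcium store group and these sodium and potassium channels were singled out after their values were seen. None of these differences was past the threshold of the DESeq2 comparison.

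**Figure D4:**
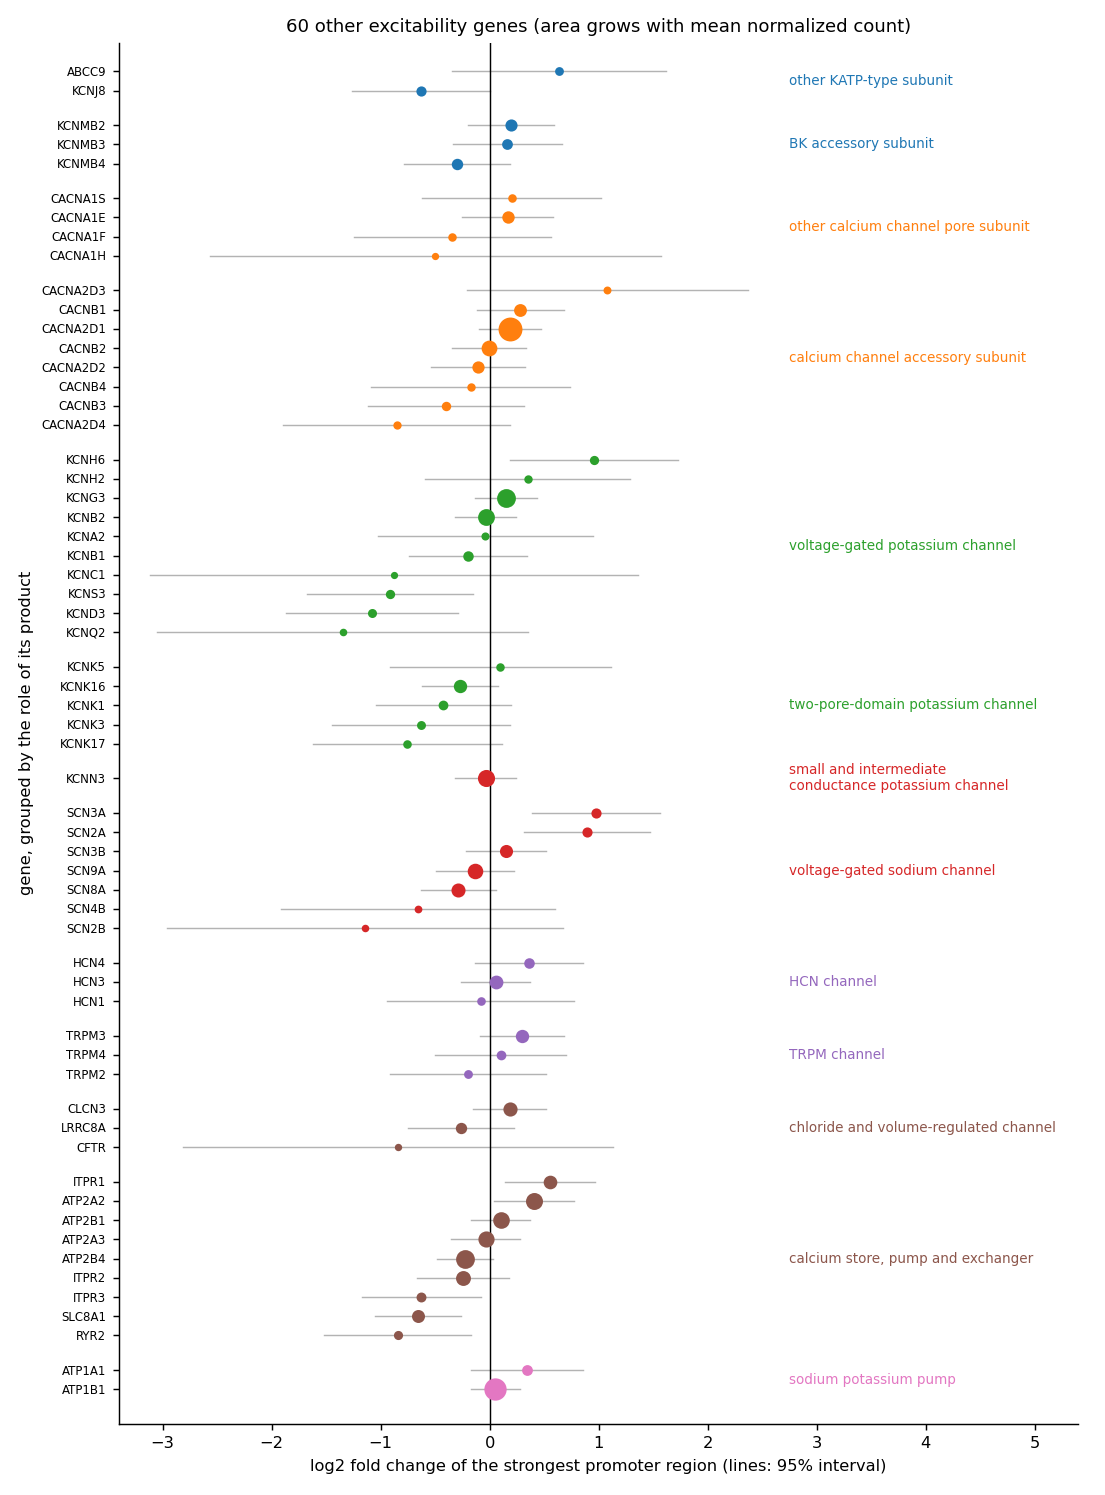
Log2 fold change (senescent over non-senescent) with 95% interval of the strongest promoter region of 60 other excitability genes, grouped by the role of the gene product; point area grows with the mean normalized count. Points lie on both sides of 0 in most groups, 25 above and 35 below in all.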

How the data were processed

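MINT-ChIP for H3K4me3 was carried out on EndoC-βH3 cells, 4 samples per state. Per the labels and the study's methods, the authors used Bowtie2 for alignment to hg38, HOMER for peaks and DESeq2 to compare states. Versions, peak merging, read counting, duplicate removal and model terms are not given in the sources used here. The deposited table gives, per region, the authors' mean normalized count over the samples (a signal with no value per sample), their log2 fold change and its standard error, their Wald score, and their p-value and Benjamini-Hochberg adjusted p-value, absent for 24586 regions. It holds nothing but these, so the authors' comparison is described as deposited and no model was refitted. It names no direction. The genes, the lists and the tests were chosen with earlier results of these data known.

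Regions were linked to start sites of all transcripts of protein-coding genes (GENCODE release 44). Intervals of 95% are the log2 fold change ± 1.96 standard errors and cover the spread the authors' DESeq2 model estimated. GC and CpG content came from hg38, and promoter sequences from RefSeq (GRCh38.p14), which matched 4 of the 6 genes, or from hg38 at the alternative CACNA1A start. Named are every promoter region of the 6 genes, by value or range, and, of the excitability list, called genes and the 3 highest and 3 lowest log2 fold changes at or above the median signal. A few channels outside this rule were named after their values were seen, as the text says. The call rule was tested on simulated data, with changes set only in promoter regions of below-median standard error, so not in noisier regions. Another 12 alternatives were planned and 2 added after seeing the data. Computations used matplotlib 3.10.9, pysam 0.24.0, scipy 1.17.1, pandas 2.3.3 and numpy 2.4.6 under Python 3.11.15.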

Additional observations from a re-analysis of the deposited data

How the results depend on the processing

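ABCC8 was called raised in 13 of 14 alternatives, with log2 fold changes from 0.59 to 1.27. The exception was the inverse-variance mean of all its promoter regions, 0.59 ± 0.20 with an adjusted p of 0.0935, so that 0 of the 6 genes were raised; this mean includes the 4 weak regions inside the gene. No member was lowered in any alternative. The median over the 6 genes moved to −0.26 with that mean and, over the 5 genes with an adjusted p there (CACNA1D had none), to −0.88 with the region of smallest p-value, which took KCNJ11 to −1.05, CACNA1C to −2.12 and KCNMA1 to −0.88, none called. With the canonical transcript only, CACNA1A had a log2 fold change of 1.21 ± 1.07 in place of −0.46, from its weak start region.

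Of the other excitability genes, 2 (KCND3 and SLC8A1) were lowered by the inverse-variance mean, and 1 (SLC8A1) with the median of all tested regions, 0.08, subtracted. With an adjusted p limit of 0.1, 2 (SCN2A and SCN3A) were raised and 1 (SLC8A1) lowered. With a mean normalized count of at least 10, 1 (SCN3A) was raised, at an adjusted p of 0.0499. By unadjusted p, an alternative chosen after seeing the data, 3 were raised and 5 lowered. Over all promoters that limit called 270 raised and 733 lowered, against 74 and 104; the smallest-p region called 139 and 134, the adjusted p limit of 0.1 called 107 and 202, and subtracting the median of all regions 51 and 157. Subtracting the median of regions with similar GC content gave 62 and 65, and with similar signal and GC content 63 and 59.

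No paired analysis was possible because the deposited table holds no value per sample, and for the same reason leaving out a replicate was not possible. Depth per sample is unknown, and whether 1 library decides the ABCC8 value was not tested.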
